A study of Mus musculus with 9 samples.

Results

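The Rab family of small GTPases was examined in RAW 264.7 cells, an established mouse macrophage line that can be driven towards osteoclasts with RANKL. Members were all genes of the deposited count table whose symbol was Rab followed by a number and at most 1 letter, which gave 59 of 49315 genes. Of these 59 members, 45 had enough counts to be tested and 14 did not. No gene with the symbol Rab7l1 was in the table, and the gene often written Rab1a is named Rab1 there. Each member was placed in 1 trafficking step by its textbook role, and the groups were compared step by step.

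Rab proteins are molecular switches that recruit motors, tethers and coats to the membrane of a given organelle when they bind GTP. A newly made Rab is typically presented by a Rab escort protein to the Rab prenyl transferase. This enzyme attaches geranylgeranyl lipids to cysteines at the end of the protein, and without a lipid a Rab cannot dock on membranes. Exchange factors (GEFs) load GTP, activating proteins (GAPs) trigger its hydrolysis, and the GDP dissociation inhibitors carry the inactive protein through the cytosol. In macrophages Rabs steer phagosome maturation and cytokine delivery, and in osteoclasts they steer the traffic that builds the acid-secreting ruffled border.

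Total RNA depleted of ribosomal RNA was sequenced from 9 libraries, 3 in each of 3 groups. The cells of the pamidronate + GGOH group received 140 µM pamidronate together with 5.25 µM GGOH. The pamidronate group received 140 µM pamidronate alone, and the control group received neither agent. The growth notes give RANKL at 20 ng/ml for all cells, added after 24 h of growth, although the control samples carry the label no treatment. Pamidronate went on after 48 h in total and the cells were kept for 24 h more, and 300 ng of RNA entered each library. Pamidronate, an aminobisphosphonate drug, blocks farnesyl diphosphate synthase and so the synthesis of geranylgeranyl diphosphate, and GGOH (geranylgeraniol) is an alcohol that cells can convert into that lipid donor. The comparison of pamidronate with control addresses how Rab transcripts respond to a block of isoprenoid synthesis, and that of pamidronate + GGOH with pamidronate how they respond when geranylgeraniol is added to it. RNA was measured here, and Rab protein or its lipid was not. All samples came from 1 cell line. The control titles speak of biological replicates, the other titles give only replicate numbers and the notes describe RNA extracted in triplicate, so p-values measure the spread between these samples, which may be technical.

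Library totals ran from 14356069 to 18957968 counts. Between 25202 and 28054 genes had a count with pamidronate + GGOH, 24287 to 26635 with pamidronate and 20558 to 22349 in control. Along the first principal component of all tested genes, which held 68.9% of the variance, pamidronate + GGOH replicate 3 lay nearer the controls, at 11.5, than the other libraries of its group at -29.8 and -18.9. The 8 macrophage markers checked summed to 12261 to 18214 TPM (counts scaled by gene length and then by library) with pamidronate + GGOH, 7591 to 11316 TPM with pamidronate and 24549.9 to 30049 TPM in control, and none was at 0 throughout a group. Lyz2, lysozyme, made up most of these sums, and not every marker followed them: Itgam, an integrin subunit, was at 36.1 to 73.0 TPM with pamidronate + GGOH, 4.00 to 4.82 TPM with pamidronate and 38.0 to 67.4 TPM in control. The 9 osteoclast markers summed to 261 to 278 TPM with pamidronate + GGOH, 287 to 416 TPM with pamidronate and 108 to 134 TPM in control. Among them, Atp6v0d2, a subunit of the proton pump, was at 89.0 to 156 TPM with pamidronate + GGOH, 185 to 295 TPM with pamidronate and 44.1 to 53.6 TPM in control. It was the largest part of the sums with pamidronate. Ctsk, the collagen-degrading protease, was at 15.3 to 23.8 TPM with pamidronate + GGOH, 48.6 to 58.0 TPM with pamidronate and 5.26 to 10.2 TPM in control. Mmp9 and Itgb3 were instead highest with pamidronate + GGOH. Mmp9 was at 48.6 to 105 TPM there, 10.1 to 14.7 TPM with pamidronate and 10.6 to 21.1 TPM in control. For Itgb3 the ranges were 4.95 to 6.26, 2.98 to 3.66 and 0.4 to 0.791 TPM in the same order. Nfatc1, the master transcription factor of osteoclasts, was at 29.4 to 34.2 TPM with pamidronate + GGOH, 26.6 to 29.6 TPM with pamidronate and 36.6 to 43.9 TPM in control. Calcr, the calcitonin receptor, reached at most 0.046 TPM and Ocstamp, which is needed for cell fusion, at most 0.345 TPM. The 12 markers of other cell types summed to 2.04 to 3.40 TPM with pamidronate + GGOH, 1.18 to 2.66 TPM with pamidronate and 0.542 to 0.645 TPM in control, with no single marker above 1.12 TPM. The part of these marker differences in the Rab results was not tested, and in bulk RNA fewer cells of a type and less RNA per cell cannot be told apart.

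The lipid attachment site sits at the very end of each Rab, and the end of the coding sequence shows how members differ there. The last 30 coding bases before the stop codon are given 5′ to 3′ for 8 members that carry the results, from GENCODE M21 on GRCm38, with cysteine codons among the last 5 codons in capitals. The lines run from ends that close on neighbouring cysteines, through ends with cysteines flanking another codon and ends with further codons after the cysteines, to the ends with 1 cysteine.
Rab1, chr11:20224813-20224842, plus strand: ccagtcaagcagtcaggtggaggcTGCTGC
Rab10, chr12:3249790-3249819, minus strand: ggcgtgacgggctggaagagcaagTGCTGC
Rab32, chr10:10546305-10546334, minus strand: cccacaacaaagcccaggtcccagTGCTGC
Rab7, chr6:88000438-88000467, minus strand: gccaaggcctccgcagaaagcTGCagtTGT
Rab27a, chr9:73095424-73095453, plus strand: gaggagaaggagaaggggttgTGTggcTGT
Rab5a, chr17:53506397-53506426, plus strand: cagccagccagaagccagTGTTGTagtaac
Rab11a, chr9:64716852-64716881, minus strand: aagccaaaggtgcagTGCTGTcagaacatc
Rab8a, chr8:72180105-72180134, plus strand: aggaccagcttcttccggTGCagtctcctg
Among all 59 members, 50 had 2 cysteine codons in the last 5 and 9 had 1. The 9 members with 1 cysteine codon, Rab8a, Rab8b, Rab13, Rab18, Rab23, Rab28, Rab38, Rab40b and Rab40c, all had it 4 codons from the end, followed by 3 other codons. Neighbouring cysteines closed the sequence in 15 members, cysteines flanking another codon closed it in 20, and neighbouring cysteines were followed by 1, 2 or 3 other codons in 3, 6 and 6 members.

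More of the tested Rab genes were lower than higher with pamidronate, while the share that changed in either direction was not far from that of all genes. With pamidronate 24 of the 45 tested members fell and 11 rose relative to control, which is 77.8% called, beside 69.2% of all 15963 tested genes (quasi-likelihood test of edgeR, p-values adjusted by Benjamini and Hochberg, called at an adjusted p under 0.05). The lower calls were 53.3% of tested members, beside 32.9% of all tested genes, and the higher calls 24.4%, beside 36.2%. Of the members, 11 fell and 3 rose at least 2-fold, where 16.3% of all tested genes fell and 21.5% rose by that much. The median log2 fold change was -0.26 over the tested members and 0.08 over all tested genes. The libraries of the compared groups did not overlap for 36 of the 45 tested members, beside 73.4% of all tested genes. With upper-quartile scaling, which moved the median of all genes by 0.19 on the log2 scale, 12 members rose and 19 fell. The members' median minus that of all genes was -0.35, against -0.34 with the TMM scaling used throughout. Scaling moves all genes of a comparison by about the same amount, so this difference could hardly change and is no check on the scaling.

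With pamidronate + GGOH 16 members rose and 10 fell relative to pamidronate, which is 57.8% called, beside 48.8% of all tested genes. Without pamidronate + GGOH replicate 3, the library nearest the controls, 15 rose and 10 fell. The higher calls were 35.6% of tested members, beside 25.2% of all tested genes, and the lower calls 22.2%, beside 23.6%. At least a 2-fold rise was seen in 8 members and a fall of that size in 1, beside 10.2% and 6.03% of all tested genes. The groups did not overlap for 28 of the 45 tested members, beside 59.6% of all tested genes. The median was -0.04 over the members and 0.00 over all tested genes. Relative to control, 22 members fell and 3 rose with pamidronate + GGOH, which is 55.6% called, beside 52.4% of all tested genes. Here 26.0% of all tested genes fell and 26.3% rose. By at least 2-fold, 3 members fell and 2 rose, beside 4.05% and 15.2% of all tested genes. The members' median was -0.33 against 0.02 for all tested genes. Groups were apart for 26 of the 45 tested members, beside 58.2% of all tested genes. These 3 comparisons share libraries pairwise, so they are given side by side and are not independent of each other. The count of 22 was 14 when libraries were scaled by their totals alone, beside 5 higher, a setting that moved the median of all genes by 0.23 on the log2 scale. The count of 3 was 1 without control replicate 1, without control replicate 2 or without pamidronate + GGOH replicate 1.

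**Figure D1:**
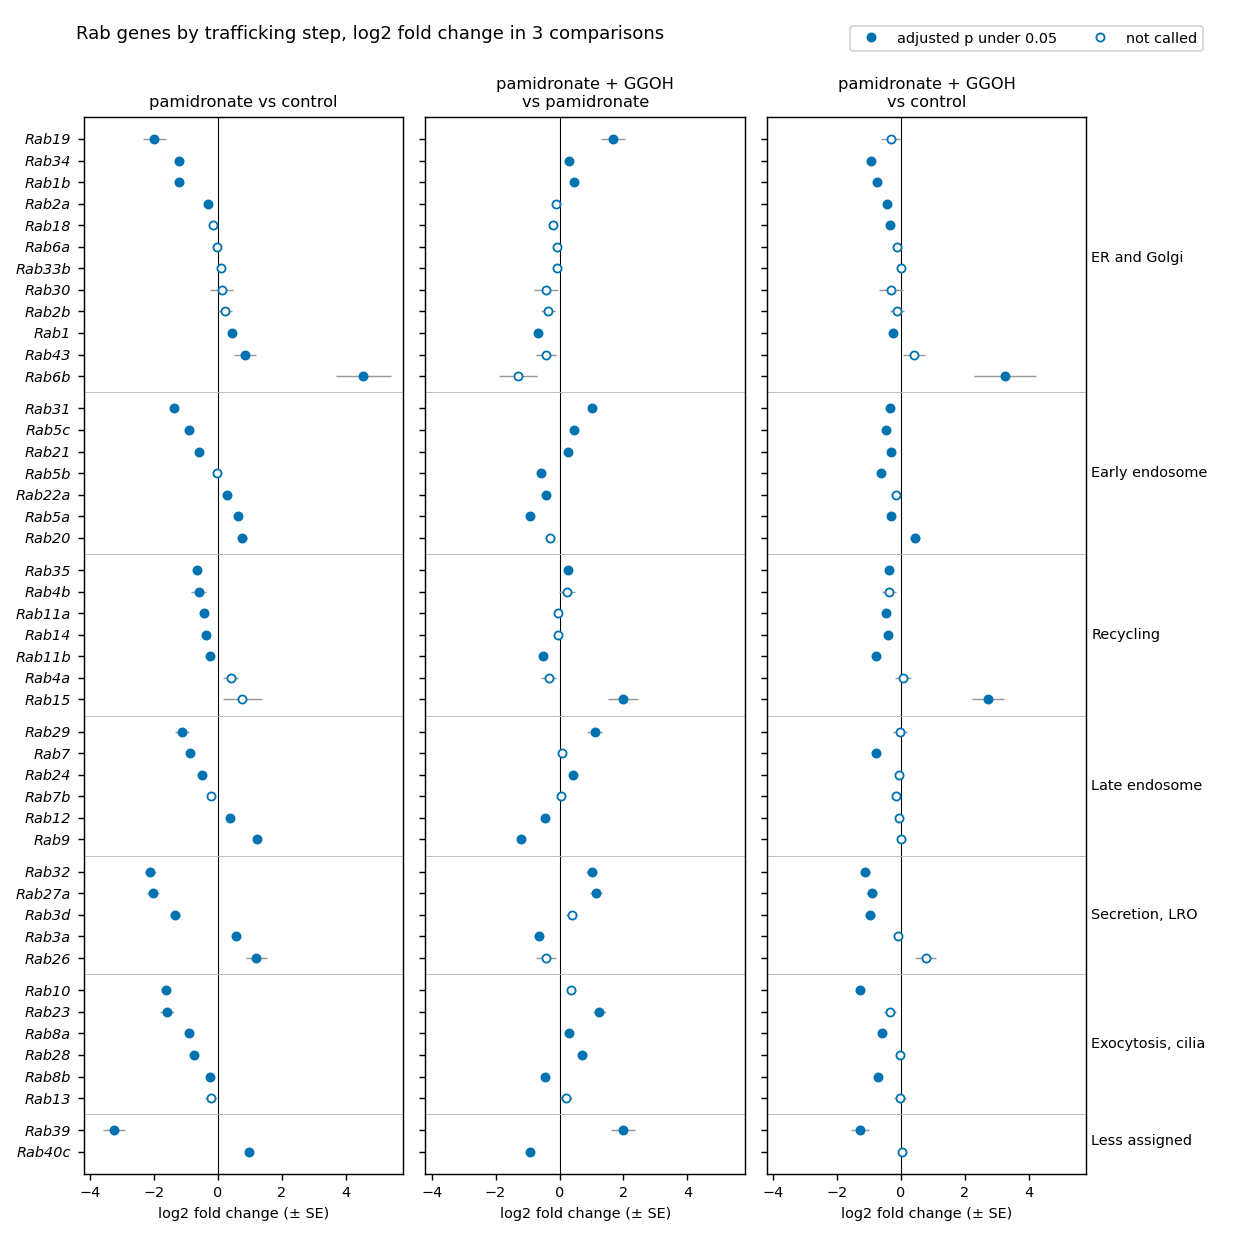
Log2 fold change ± SE of the 45 tested Rab genes (x axis) in the comparisons pamidronate versus control, pamidronate + GGOH versus pamidronate and pamidronate + GGOH versus control, grouped by trafficking step (LRO, lysosome-related organelles). Filled points passed an adjusted p of 0.05 and open points did not; in the left panel 24 filled points lie below 0 and 11 above.

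Among the Rabs of exocytosis and cilia, 5 of 6 tested members fell with pamidronate relative to control and none rose, beside 32.9% and 36.2% of all tested genes. With pamidronate + GGOH 3 rose and 1 fell relative to pamidronate (25.2% and 23.6% of all tested genes), and 3 fell and none rose relative to control (26.0% and 26.3%). Rab10 delivers vesicles to the plasma membrane, including Toll-like receptor 4 in macrophages. It had 157, 172 and 219.8 CPM with pamidronate + GGOH, 158, 159.6 and 114 CPM with pamidronate and 453, 454 and 434 CPM in control (CPM, counts scaled by the library total and its TMM factor). Every pamidronate and pamidronate + GGOH library lay below every control, and the groups with pamidronate overlapped each other. Rab10 was 3.11-fold lower with pamidronate than in control (log2 -1.64 ± 0.14 SE, adjusted p = 3.56e-07) and 2.44-fold lower with pamidronate + GGOH than in control (log2 -1.29, adjusted p = 1.46e-05). Between pamidronate + GGOH and pamidronate it did not pass the test (log2 0.35, adjusted p = 0.0539), although it did in 10 of the 17 alternatives, such as DESeq2 at an adjusted p of 0.035, without control replicate 2 (0.0498), without pamidronate replicate 2 (0.0496), without pamidronate + GGOH replicate 1 (0.013) and without pamidronate + GGOH replicate 2 (0.0475). Its exons share 141 bases with the antisense gene Rab10os, which had 4382 counts over the 9 libraries against 39535 for Rab10, and without a stated strand the reads there cannot be told apart.

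The closely related Rab8a and Rab8b also act between the Golgi and the plasma membrane and at the primary cilium. Rab8a had 36.4, 38.7 and 43.0 CPM with pamidronate + GGOH, 33.7, 31.2 and 31.2 CPM with pamidronate and 60.7, 58.4 and 61.0 CPM in control. Its groups did not overlap in any of the comparisons. Rab8a was 1.87-fold lower with pamidronate than in control (adjusted p = 5.57e-07) and 1.23-fold higher with pamidronate + GGOH than with pamidronate (adjusted p = 0.0132). The second call was lost without pamidronate replicate 2 (adjusted p = 0.0556) or without pamidronate replicate 3 (0.0513). Rab8b averaged 177 ± 10.2 CPM with pamidronate + GGOH, 244 ± 13.8 CPM with pamidronate and 290.1 ± 14.2 CPM in control (SD, n = 3 each). It fell 1.38-fold with pamidronate + GGOH relative to pamidronate (adjusted p = 0.00042), while Rab8a rose. Its 1.19-fold fall with pamidronate relative to control (adjusted p = 0.0161) was lost with upper-quartile scaling (0.565), with totals alone (0.0601), without pamidronate replicate 1 (0.0725) and without pamidronate replicate 2 (0.0518).

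Rab23, a negative regulator of Hedgehog signalling at the cilium, had 8.06, 9.84 and 8.25 CPM with pamidronate + GGOH, 2.81, 3.04 and 5.14 CPM with pamidronate and 9.52, 12.3 and 11.4 CPM in control. The pamidronate libraries were lowest, and the pamidronate + GGOH libraries overlapped the controls. Rab23 was 3.01-fold lower with pamidronate than in control (adjusted p = 1.08e-05) and 2.38-fold higher with pamidronate + GGOH than with pamidronate (adjusted p = 0.000256). Rab28, a Rab of cilia and photoreceptors, moved by log2 -0.75 with pamidronate relative to control and 0.71 with pamidronate + GGOH relative to pamidronate. Rab13, which acts at cell junctions and in actin remodelling, had 6.64, 5.92 and 5.83 CPM with pamidronate + GGOH, 5.32, 4.55 and 6.13 CPM with pamidronate and 6.48, 6.94 and 5.38 CPM in control. All 3 groups overlapped and Rab13 passed no test, with log2 fold changes of -0.23 with pamidronate and -0.03 with pamidronate + GGOH relative to control.

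Of the Rabs of lysosome-related organelles and regulated secretion, 5 of 11 members had enough counts to be tested, and with pamidronate 3 of these fell and 2 rose relative to control. In all tested genes these shares were 32.9% and 36.2%. Adding GGOH to pamidronate raised 2 and lowered 1 relative to pamidronate (25.2% and 23.6% of all tested genes). Relative to control 3 fell and none rose with pamidronate + GGOH (26.0% and 26.3%). Rab32 directs cargo to melanosomes and other lysosome-related organelles and takes part in the killing of bacteria in macrophages. It had 12.5, 16.8 and 21.2 CPM with pamidronate + GGOH, 9.59, 8.41 and 7.18 CPM with pamidronate and 35.7, 36.6 and 37.4 CPM in control. The groups did not overlap, with pamidronate lowest and control highest. Rab32 was 4.35-fold lower with pamidronate than in control (log2 -2.12 ± 0.17 SE, adjusted p = 8.03e-08), 2.00-fold higher with pamidronate + GGOH than with pamidronate (adjusted p = 0.000228) and 2.17-fold lower with pamidronate + GGOH than in control (adjusted p = 6.74e-05).

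Rab27a, which docks secretory lysosomes at the plasma membrane, had 4.65, 5.23 and 6.52 CPM with pamidronate + GGOH, 2.38, 2.34 and 2.79 CPM with pamidronate and 9.75, 11.0 and 10.2 CPM in control. Here too no library of a group reached into the range of another. Rab27a was 4.12-fold lower with pamidronate than in control (log2 -2.04 ± 0.18 SE, adjusted p = 2.19e-07), 2.18-fold higher with pamidronate + GGOH than with pamidronate (adjusted p = 0.000203) and 1.89-fold lower with pamidronate + GGOH than in control (adjusted p = 0.00048). Rab3d, an exocytic Rab needed in mouse osteoclasts for a normal ruffled border, had 14.4, 14.5 and 22.6 CPM with pamidronate + GGOH, 14.0, 14.0 and 11.8 CPM with pamidronate and 34.3, 34.1 and 33.7 CPM in control. Controls lay within a narrow range well above all other libraries, and pamidronate + GGOH replicate 3 was the highest of the treated libraries. Rab3d was 2.56-fold lower with pamidronate than in control (adjusted p = 2.61e-06) and 1.98-fold lower with pamidronate + GGOH than in control (adjusted p = 0.000132). Between pamidronate + GGOH and pamidronate it did not pass (log2 0.37, adjusted p = 0.0634), and it passed without pamidronate + GGOH replicate 1 (0.015) or without pamidronate + GGOH replicate 2 (0.023), with totals alone (0.00959), with no filter (0.0107) and with upper-quartile scaling (0.0478).

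Rab3a, best known from synaptic vesicles and also active in lysosome exocytosis, was highest with pamidronate. It had 10.7 ± 1.08 CPM with pamidronate + GGOH, 16.8 ± 1.46 CPM with pamidronate and 11.4 ± 1.29 CPM in control (mean ± SD, n = 3 each). It rose 1.47-fold with pamidronate relative to control (adjusted p = 0.0019) and was 1.58-fold lower with pamidronate + GGOH than with pamidronate (adjusted p = 0.00101). Rab26, linked to secretory granules and autophagy of vesicles, also rose with pamidronate relative to control (log2 1.20, adjusted p = 0.00425), at means under 5 CPM in every group. It shares 267 same-strand exon bases with Traf7, which had 11062 counts against 369 for Rab26, so its value is uncertain. The other 6 members of this step were untested, among them Rab38, the closest relative of Rab32, and Rab44, a large Rab reported in mouse osteoclasts. Rab38 had 2, 0 and 0 counts with pamidronate + GGOH, 0, 0 and 0 counts with pamidronate and 1, 0 and 0 counts in control. Rab44 had 9, 4 and 2 counts with pamidronate + GGOH, 1, 3 and 1 counts with pamidronate and 0 counts in each control library. Both were at the edge of detection at this depth.

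**Figure D2:**
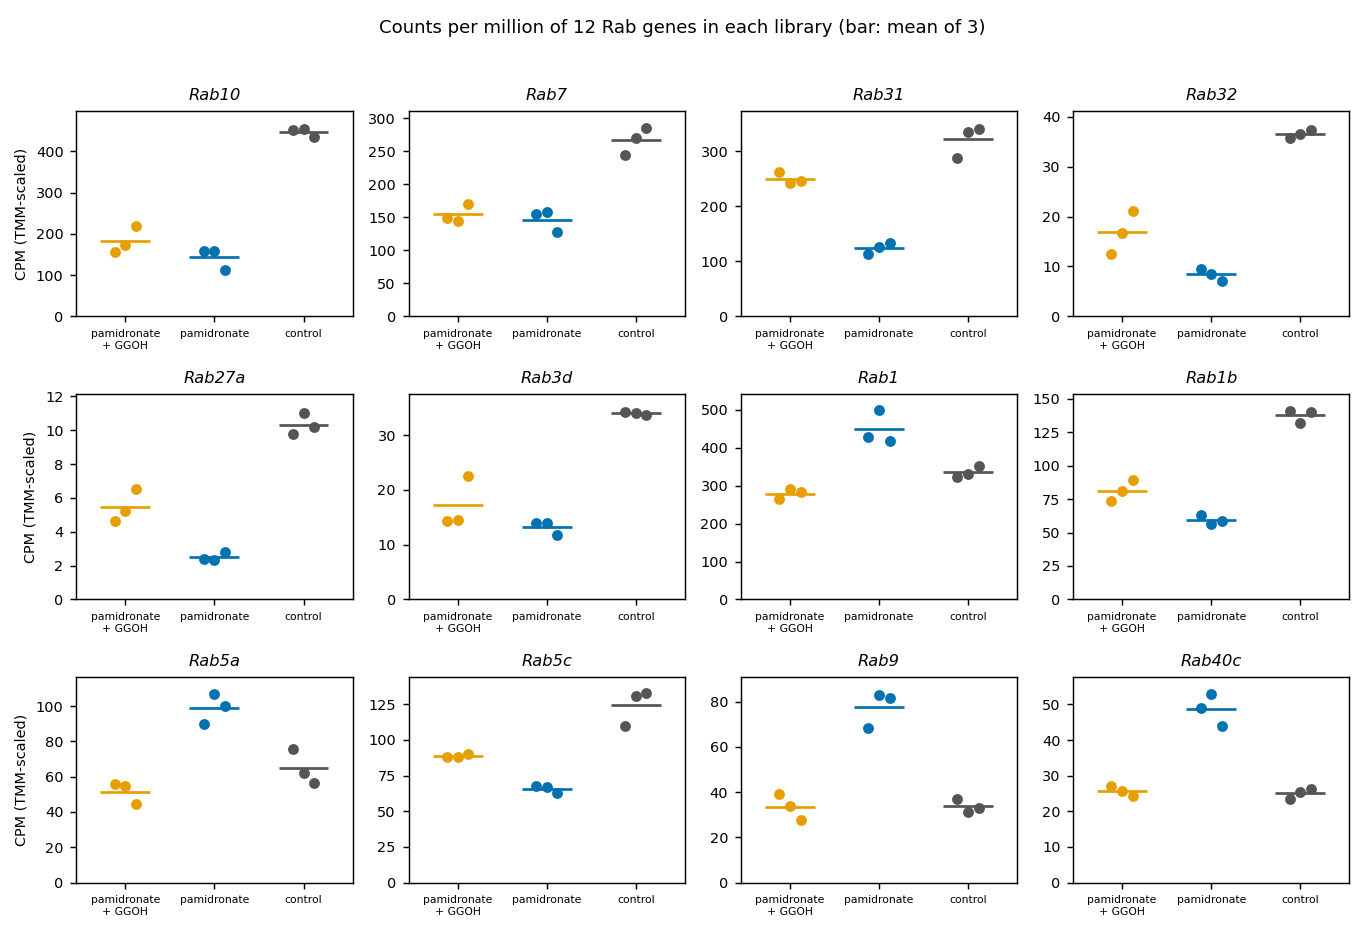
TMM-scaled CPM (y axis, linear from 0) of 12 Rab genes in each library, with pamidronate + GGOH, pamidronate and control from left to right. Points are libraries and bars the mean of 3; Rab10, Rab32, Rab27a and Rab3d were highest in control, whereas Rab1, Rab5a, Rab9 and Rab40c were highest with pamidronate.

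In the late endosome, lysosome and autophagosome step, 3 of 6 tested members fell and 2 rose with pamidronate relative to control. Among all tested genes 32.9% were lower and 36.2% higher. Between pamidronate + GGOH and pamidronate 2 rose and 2 fell (25.2% and 23.6% of all tested genes). Relative to control 1 fell and none rose with pamidronate + GGOH (26.0% and 26.3%). Rab7, which drives fusion of late endosomes with lysosomes and takes part in forming the ruffled border of osteoclasts, had 149, 145 and 171 CPM with pamidronate + GGOH, 154, 158 and 128 CPM with pamidronate and 245, 271 and 286 CPM in control. All treated libraries were below all controls, and pamidronate + GGOH overlapped pamidronate. Rab7 was 1.82-fold lower with pamidronate (adjusted p = 3.44e-06) and 1.73-fold lower with pamidronate + GGOH (adjusted p = 3.33e-05) than in control, and did not pass between pamidronate + GGOH and pamidronate (log2 0.08, adjusted p = 0.559). Its exons share 204 bases with the opposite-strand gene Gm5577, which had 263 counts against 28943 for Rab7. Rab7b, a separate gene acting between late endosomes and the Golgi, passed no test. It had log2 -0.21 with pamidronate relative to control (adjusted p = 0.112), a call gained in 5 of 17 alternatives, among them without control replicate 3 (0.00747) and without pamidronate + GGOH replicate 2 (0.0355) or replicate 3 (0.0347).

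Rab9, which returns mannose 6-phosphate receptors from late endosomes to the Golgi, had 39.0, 34.0 and 27.4 CPM with pamidronate + GGOH, 68.4, 83.0 and 81.8 CPM with pamidronate and 36.9, 31.2 and 32.8 CPM in control. Every pamidronate library was above all others, and pamidronate + GGOH overlapped control. Rab9 was 2.31-fold higher with pamidronate than in control (log2 1.21 ± 0.12 SE, adjusted p = 8.71e-07), 2.32-fold lower with pamidronate + GGOH than with pamidronate (adjusted p = 3.39e-06), and at log2 -0.01 ± 0.13 SE with pamidronate + GGOH relative to control (adjusted p = 0.969). Rab29, a partner of the kinase LRRK2 at the Golgi and stressed lysosomes, showed the opposite order of groups. It had 5.34, 5.48 and 8.20 CPM with pamidronate + GGOH, 3.54, 2.40 and 2.97 CPM with pamidronate and 5.72, 7.45 and 6.43 CPM in control. Rab29 was 2.19-fold lower with pamidronate than in control (adjusted p = 0.000391) and 2.13-fold higher with pamidronate + GGOH than with pamidronate (adjusted p = 0.00101), and pamidronate + GGOH overlapped control.

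Rab24, a Rab of autophagy, fell with pamidronate relative to control (log2 -0.49, adjusted p = 0.00277). Its rise with pamidronate + GGOH relative to pamidronate (log2 0.41, adjusted p = 0.013) was lost without pamidronate replicate 1 (0.0533) or without pamidronate replicate 2 (0.0647). Rab12, which sends transferrin receptor to lysosomes, rose with pamidronate relative to control (log2 0.37, adjusted p = 0.00759), a call lost without control replicate 2 (0.0623) or without control replicate 3 (0.0596). It fell with pamidronate + GGOH relative to pamidronate (log2 -0.44, adjusted p = 0.00401).

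In the early endosome and phagosome step 3 of 7 members were lower and 3 higher with pamidronate than in control. All tested genes were likewise split, at 32.9% and 36.2%. Between pamidronate + GGOH and pamidronate 3 rose and 3 fell (25.2% and 23.6% of all tested genes). Relative to control 5 fell and 1 rose with pamidronate + GGOH (26.0% and 26.3%). The Rab5 genes encode the switches of early endosome fusion, and they did not move together. Rab5a had 55.6, 54.6 and 44.5 CPM with pamidronate + GGOH, 90.1, 107 and 99.8 CPM with pamidronate and 75.6, 61.8 and 56.7 CPM in control. The pamidronate libraries were highest, and the pamidronate + GGOH libraries lay just below the controls. Rab5a was 1.53-fold higher with pamidronate than in control (adjusted p = 0.00031) and 1.92-fold lower with pamidronate + GGOH than with pamidronate (adjusted p = 1.85e-05). Its fall with pamidronate + GGOH relative to control (log2 -0.33, adjusted p = 0.0302) was lost in 6 of 17 alternatives, including without control replicate 1 (0.126) and without pamidronate + GGOH replicate 3 (0.0752).

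Rab5c had 88.2, 88.2 and 90.4 CPM with pamidronate + GGOH, 67.7, 66.7 and 62.6 CPM with pamidronate and 109.6, 131 and 133 CPM in control. Unlike for Rab5a, the pamidronate libraries were lowest and the controls highest. Rab5c was 1.89-fold lower with pamidronate than in control (adjusted p = 3.76e-07) and 1.35-fold higher with pamidronate + GGOH than with pamidronate (adjusted p = 0.000856). Rab5b had 87.6, 79.5 and 97.0 CPM with pamidronate + GGOH, 134, 143 and 122 CPM with pamidronate and 142, 132 and 136 CPM in control. Pamidronate overlapped control, and the pamidronate + GGOH libraries were below both. Rab5b did not pass between pamidronate and control (log2 -0.04 ± 0.09 SE, adjusted p = 0.727) and was 1.51-fold lower with pamidronate + GGOH than with pamidronate (adjusted p = 0.000108).

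Rab31, also called Rab22b, moves cargo between the Golgi and endosomes. It had 263, 242 and 247 CPM with pamidronate + GGOH, 113, 125 and 134 CPM with pamidronate and 288, 335 and 341 CPM in control. Pamidronate libraries were far below the rest, and the pamidronate + GGOH libraries lay closer to the controls without overlapping them. Rab31 was 2.59-fold lower with pamidronate than in control (log2 -1.37 ± 0.10 SE, adjusted p = 2.04e-08) and 2.02-fold higher with pamidronate + GGOH than with pamidronate (adjusted p = 1.53e-06). Its fall with pamidronate + GGOH relative to control (log2 -0.36, adjusted p = 0.00489) was lost with upper-quartile scaling (0.17) and with totals alone (0.259).

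Rab20, a Rab of phagosome maturation induced in activated macrophages, had 8.46, 7.48 and 6.62 CPM with pamidronate + GGOH, 9.47, 9.04 and 9.29 CPM with pamidronate and 5.14, 5.32 and 6.18 CPM in control. Pamidronate was highest and control lowest, without overlap. It shares 356 exon bases with the opposite-strand gene E230013L22Rik, which had 189 counts against 1126. Rab20 was 1.67-fold higher with pamidronate than in control (adjusted p = 0.00065) and did not pass between pamidronate + GGOH and pamidronate (adjusted p = 0.114). Its rise with pamidronate + GGOH relative to control (log2 0.44, adjusted p = 0.0292) was lost in 5 of 17 alternatives, without control replicate 1 (0.0854), without control replicate 2 (0.103), without pamidronate + GGOH replicate 1 (0.131) or replicate 2 (0.0684), and with no filter (0.114). Rab21, which carries integrins, fell with pamidronate relative to control (log2 -0.59, adjusted p = 2.65e-05) and rose with pamidronate + GGOH relative to pamidronate (log2 0.27, adjusted p = 0.0188). The second call was lost without pamidronate replicate 1 (0.0519) or without pamidronate replicate 3 (0.104). Rab22a, an endosomal relative of Rab31, fell with pamidronate + GGOH relative to pamidronate (log2 -0.42, adjusted p = 0.000553). Its rise with pamidronate relative to control (log2 0.28, adjusted p = 0.00649) was lost without control replicate 2 (0.0547) and with no filter (0.17).

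In the recycling step 5 of 7 tested members fell with pamidronate relative to control and none rose (32.9% and 36.2% of all tested genes), with no change reaching 2-fold. The count of 5 was 2 with upper-quartile scaling, 3 with totals alone and 3 without pamidronate replicate 3. Between pamidronate + GGOH and pamidronate 2 rose and 1 fell (25.2% and 23.6% of all tested genes). Relative to control 4 fell and 1 rose with pamidronate + GGOH (26.0% and 26.3%). Rab11a marks the recycling endosome and had 116, 108 and 122 CPM with pamidronate + GGOH, 112, 124 and 119.5 CPM with pamidronate and 167, 159.7 and 152 CPM in control. Controls were above all treated libraries, and the treated groups overlapped. Rab11a was 1.35-fold lower with pamidronate (adjusted p = 0.000304) and 1.38-fold lower with pamidronate + GGOH (adjusted p = 0.000335) than in control. Rab11b, its near relative, had 36.4, 37.2 and 43.7 CPM with pamidronate + GGOH, 56.1, 57.4 and 54.3 CPM with pamidronate and 66.6, 64.5 and 70.5 CPM in control. The pamidronate + GGOH libraries were lowest, below those of pamidronate, and the controls were highest. Rab11b was 1.43-fold lower with pamidronate + GGOH than with pamidronate (adjusted p = 0.00031) and 1.72-fold lower than in control (adjusted p = 1.37e-05). Its fall with pamidronate relative to control (log2 -0.27, adjusted p = 0.0162) was lost with upper-quartile scaling (0.459), with totals alone (0.0558) and without pamidronate replicate 3 (0.0535).

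Rab14 acts between the Golgi and endosomes and in phagosomes, and had 236, 260.0 and 254 CPM with pamidronate + GGOH, 254, 270.0 and 253 CPM with pamidronate and 346, 329 and 326 CPM in control. Treated libraries of both kinds overlapped and all lay below the controls. Rab14 was 1.29-fold lower with pamidronate (adjusted p = 0.00103) and 1.33-fold lower with pamidronate + GGOH (adjusted p = 0.000717) than in control, the first lost with upper-quartile scaling (0.0671) and the second with totals alone (0.0607). Rab35, the Rab of fast recycling to the surface, had 39.5, 39.6 and 42.2 CPM with pamidronate + GGOH, 34.8, 34.2 and 31.2 CPM with pamidronate and 49.2, 54.1 and 54.8 CPM in control. Its groups did not overlap. Rab35 was 1.58-fold lower with pamidronate than in control (adjusted p = 1.14e-05) and 1.21-fold higher with pamidronate + GGOH than with pamidronate (adjusted p = 0.0185), the second call being lost without pamidronate replicate 3 (0.0865).

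Rab15, an endosomal Rab studied mainly in neurons, was low throughout, with means of 1.74 ± 0.185 CPM with pamidronate + GGOH, 0.435 ± 0.270 CPM with pamidronate and 0.258 ± 0.161 CPM in control (± SD, n = 3 each). It was 3.94-fold higher with pamidronate + GGOH than with pamidronate (adjusted p = 0.00281) and 6.64-fold higher than in control (adjusted p = 0.000482). Rab4a and Rab4b, further Rabs of fast recycling, averaged under 5 CPM in each group. Rab4b fell with pamidronate relative to control (log2 -0.61, adjusted p = 0.032), and the call was lost in 5 of 17 alternatives, among them without control replicate 1 (0.0656), without pamidronate replicate 2 (0.127) and without pamidronate replicate 3 (0.0721). Rab4b also shares 1280 same-strand exon bases with the gene Gm21983, which had 1 count. Rab4a did not pass (log2 0.40, adjusted p = 0.149), and passed without pamidronate replicate 1 (0.0385) and with upper-quartile scaling (0.039).

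In the ER and Golgi step, 4 of 12 tested members (33.3%) fell and 3 rose with pamidronate relative to control, near the 32.9% and 36.2% of all tested genes. Between pamidronate + GGOH and pamidronate 3 rose and 1 fell (25.2% and 23.6% of all tested genes). Relative to control 5 fell and 1 rose with pamidronate + GGOH (26.0% and 26.3%). The Rab1 genes encode the Rabs of transport from the ER to the Golgi, and the family pair moved apart. Rab1 had 264, 290.3 and 283 CPM with pamidronate + GGOH, 429, 500.3 and 419 CPM with pamidronate and 324, 331 and 352 CPM in control. The pamidronate libraries were highest and those of pamidronate + GGOH lowest. Rab1 was 1.34-fold higher with pamidronate than in control (adjusted p = 0.000921) and 1.61-fold lower with pamidronate + GGOH than with pamidronate (adjusted p = 3.34e-05). Its fall with pamidronate + GGOH relative to control (log2 -0.27, adjusted p = 0.026) was lost in 6 of 17 alternatives, including with totals alone (0.764), without control replicate 2 (0.0513), without control replicate 3 (0.0552) and without pamidronate + GGOH replicate 1 (0.0802).

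Rab1b had 73.7, 80.7 and 89.5 CPM with pamidronate + GGOH, 62.9, 56.5 and 58.5 CPM with pamidronate and 141, 132 and 140.0 CPM in control. Here pamidronate was lowest and control highest, without overlap. Rab1b was 2.32-fold lower with pamidronate than in control (log2 -1.21 ± 0.09 SE, adjusted p = 3.5e-08), 1.37-fold higher with pamidronate + GGOH than with pamidronate (adjusted p = 0.000693) and 1.69-fold lower with pamidronate + GGOH than in control (adjusted p = 1.35e-05). Rab34, a Golgi Rab that positions lysosomes and acts in phagosome maturation, had 30.1, 29.5 and 36.4 CPM with pamidronate + GGOH, 28.5, 25.4 and 24.6 CPM with pamidronate and 64.4, 64.8 and 55.4 CPM in control. Control libraries were roughly level and above all others. Rab34 was 2.35-fold lower with pamidronate (adjusted p = 1.86e-07) and 1.92-fold lower with pamidronate + GGOH (adjusted p = 1.24e-05) than in control. Its small rise with pamidronate + GGOH relative to pamidronate (log2 0.29, adjusted p = 0.0394) was lost with the replicate number as a block (0.0559), without pamidronate replicate 2 (0.125), without pamidronate replicate 3 (0.14) and without pamidronate + GGOH replicate 3 (0.0983).

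Rab2a, a Rab of the Golgi that also delivers cargo to lysosomes, had 44.2, 46.2 and 49.5 CPM with pamidronate + GGOH, 53.0, 50.4 and 47.9 CPM with pamidronate and 65.8, 67.5 and 57.0 CPM in control. Controls were highest and the other groups overlapped. Rab2a was 1.26-fold lower with pamidronate than in control (adjusted p = 0.00505), lost with upper-quartile scaling (0.18), and 1.36-fold lower with pamidronate + GGOH than in control (adjusted p = 0.0011), lost with totals alone (0.0625). Rab6a, the main Golgi Rab, had 96.1, 95.0 and 97.9 CPM with pamidronate + GGOH, 101, 114 and 89.8 CPM with pamidronate and 122, 102 and 89.7 CPM in control. The groups overlapped and Rab6a passed no test, at log2 -0.04 ± 0.11 SE with pamidronate and -0.12 ± 0.11 SE with pamidronate + GGOH relative to control. It shares 708 exon bases with the opposite-strand gene Mrpl48, which had 3388 counts against 15341.

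Rab6b, a form of Rab6 known from neurons, was nearly absent from controls, with 1.65, 1.25 and 0.158 CPM with pamidronate + GGOH, 2.38, 1.58 and 3.41 CPM with pamidronate and 0.0584, 0 and 0.247 CPM in control. It rose with pamidronate relative to control (log2 4.55 ± 0.87 SE, adjusted p = 0.000616), and its call with pamidronate + GGOH relative to control (adjusted p = 0.0147) was lost without control replicate 1 (0.0537), without control replicate 2 (0.0556) or without pamidronate + GGOH replicate 1 (0.052). Rab19 was 4.00-fold lower with pamidronate than in control (adjusted p = 0.000162) and 3.19-fold higher with pamidronate + GGOH than with pamidronate (adjusted p = 0.0016), at under 5 CPM in each group. Rab43, a Golgi Rab, rose with pamidronate (log2 0.84, adjusted p = 0.0361), a call lost in 7 of 17 alternatives: with no filter (0.0554), with DESeq2 (0.054), without control replicate 2 (0.0629) or 3 (0.187), and without pamidronate replicate 1 (0.0731), 2 (0.0772) or 3 (0.0708). Rab43 also shares 4164 exon bases on the same strand with Gm45140, which had 115 counts against 275 for Rab43, so its value is uncertain. Rab18, the Rab of lipid droplets, did not pass with pamidronate relative to control (adjusted p = 0.174), and its fall with pamidronate + GGOH relative to control (adjusted p = 0.00768) was lost with upper-quartile scaling (0.21) and with totals alone (0.348). Rab2b, Rab30 and Rab33b passed no test in any comparison, and Rab2b shares exon bases with 2 opposite-strand genes, Tox4 with 16600 counts and Gm43766 with 266, against 700 for Rab2b.

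Of the less assigned members, Rab39 and Rab40c were tested and moved in opposite directions. Rab39, linked to phagosome acidification and to caspase-1 in macrophages, was low, with 1.19, 1.43 and 1.63 CPM with pamidronate + GGOH, 0.244, 0.316 and 0.495 CPM with pamidronate and 3.04, 2.91 and 4.45 CPM in control. No groups overlapped, and Rab39 was 9.65-fold lower with pamidronate than in control (adjusted p = 1.03e-06) and 3.97-fold higher with pamidronate + GGOH than with pamidronate (adjusted p = 0.000538). Rab40c, a Rab with a SOCS box that recruits a ubiquitin ligase, had 27.0, 25.7 and 24.3 CPM with pamidronate + GGOH, 48.9, 53.0 and 43.9 CPM with pamidronate and 23.4, 25.4 and 26.2 CPM in control. The pamidronate libraries stood above all others. It was 1.94-fold higher with pamidronate than in control (adjusted p = 8.96e-07) and 1.89-fold lower with pamidronate + GGOH than with pamidronate (adjusted p = 5e-06).

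Levels of different Rab genes were compared in TPM, which corrects for gene length. The summed level of all 59 members was 2203 ± 103 TPM with pamidronate + GGOH, 2040.2 ± 96.3 TPM with pamidronate and 2516 ± 161 TPM in control (SD, n = 3 each). The ranking of the members differed between the groups. With pamidronate + GGOH, Rab1 at 209.5 ± 14.8 TPM and Rab31 at 205 ± 4.52 TPM led within each other's spread, followed by Rab7 at 169 ± 16.2 TPM and Rab10 at 149 ± 28.1 TPM, and Rab9 had rank 16 at 54.5 ± 8.69 TPM. With pamidronate, Rab1 led at 294 ± 25.4 TPM, above the next member by more than the spread, followed by Rab7 at 139.7 ± 16.8, Rab8b at 128 ± 5.86 and Rab9 at 110.2 ± 8.93 TPM. Rab10 had rank 7 with pamidronate at 102 ± 19.3 TPM and Rab31 rank 10 at 88.5 ± 5.63 TPM. In control, Rab10 led at 288 ± 12.5 TPM, followed by Rab7 at 233 ± 30.3, Rab31 at 210.3 ± 29.7 and Rab1 at 200.4 ± 18.9 TPM. Rab31 lay within the spread of both Rab7 and Rab1 there, whereas Rab7 was above Rab1 in each control library. Rab9, at rank 4 with pamidronate, had rank 18 in control at 43.4 ± 1.97 TPM.

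By step, the summed TPM of the exocytosis and cilia Rabs was 302 ± 37.1 with pamidronate + GGOH, 259.7 ± 13.0 with pamidronate and 475 ± 28.2 in control (SD, n = 3 each). Within this sum, Rab10 alone stood at 102 TPM with pamidronate and 288 TPM in control. Rabs of the early endosome and phagosome summed to 622 ± 5.76 TPM with pamidronate + GGOH, 502 ± 16.6 TPM with pamidronate and 649 ± 60.1 TPM in control. Rab31 alone stood at 88.5 TPM with pamidronate and 210.3 TPM in control, while 3 of the 7 members of this step were called higher with pamidronate. The ER and Golgi sum differed less, at 605 ± 42.1 TPM with pamidronate + GGOH, 619.7 ± 42.5 TPM with pamidronate and 649 ± 23.2 TPM in control, within which Rab1 and Rab1b moved in opposite directions. Sums for secretory and lysosome-related organelle Rabs were 55.4 ± 7.72 TPM with pamidronate + GGOH, 41.6 ± 3.43 TPM with pamidronate and 76.7 ± 6.69 TPM in control. The less assigned sum went the other way, at 27.1 ± 1.29 TPM with pamidronate + GGOH, 40.8 ± 3.66 TPM with pamidronate and 21.9 ± 2.49 TPM in control. Rab40c made up most of it, at 39.0 TPM with pamidronate and 18.4 TPM in control, whereas Rab39 stood at 0.293 and 2.66 TPM. Sums of the recycling Rabs were 232 ± 12.2 TPM with pamidronate + GGOH, 207 ± 4.39 TPM with pamidronate and 252 ± 10.2 TPM in control. Those of the late endosome step were 360.2 ± 17.0 TPM with pamidronate + GGOH, 369.6 ± 18.3 TPM with pamidronate and 392.7 ± 31.2 TPM in control. TPM is not scaled by TMM factors, so a group difference in TPM can differ from that in CPM. Several members show this for pamidronate + GGOH relative to control, among them Rab1, Rab5a, Rab18 and Rab21. These were called lower there, while their mean TPM in the groups differed by less than the SD.

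**Figure D3:**
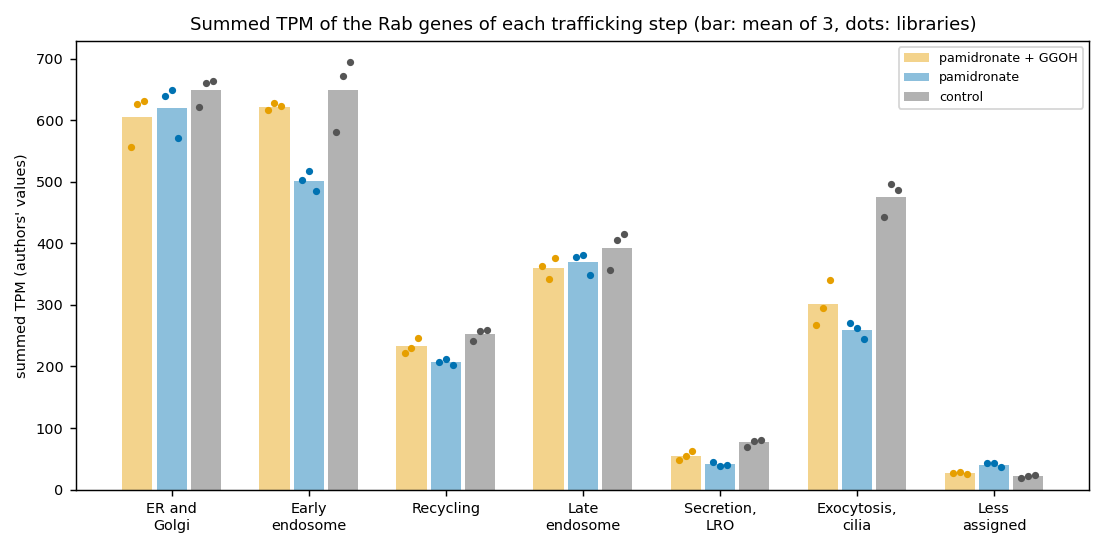
Summed TPM (y axis, linear from 0) of the Rab genes of each trafficking step in each library, with pamidronate + GGOH, pamidronate and control from left to right. Points are libraries and bars the mean of 3; the exocytosis and cilia Rabs summed to 259.7 TPM with pamidronate and 475 TPM in control.

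Related genes that share a number were set against each other within each library, which cancels the scaling between libraries. These pairs were taken up after the values had been seen. Of 11 such pairs, 10 had counts for both genes in every library. The pairs formed among Rab5a, Rab5b and Rab5c share their genes, so the 10 pairs are not independent of each other. The log2 ratio of Rab1 to Rab1b TPM was 0.79, 0.80 and 0.61 with pamidronate + GGOH, 1.72, 2.10 and 1.79 with pamidronate and 0.15, 0.27 and 0.28 in control. No group overlapped another, so that the share of Rab1 within the pair was largest with pamidronate in every library. Rab5a to Rab5c gave -0.77, -0.80 and -1.13 with pamidronate + GGOH, 0.31, 0.58 and 0.57 with pamidronate and -0.64, -1.18 and -1.33 in control. Rab5a was thus the higher of the pair with pamidronate and the lower elsewhere, and pamidronate + GGOH overlapped control. Rab3a to Rab3d gave 0.63, 0.44 and -0.31 with pamidronate + GGOH, 1.26, 1.03 and 1.48 with pamidronate and -0.87, -0.57 and -0.56 in control. Rab8a to Rab8b had a mean log2 ratio of -2.15 with pamidronate + GGOH, -2.91 with pamidronate and -2.26 in control. Each of these ratios was apart between pamidronate and control, with an exact two-sided permutation p of 0.1, the smallest that 3 against 3 libraries allow, which was 0.143 after adjustment over 10 pairs. That smallest p was reached by 7 of the 10 pairs for pamidronate versus control, 6 for pamidronate + GGOH versus pamidronate and 4 for pamidronate + GGOH versus control. It means only that the groups did not overlap, which for single genes held for 73.4%, 59.6% and 58.2% of all tested genes. The ratios of Rab2a to Rab2b and of Rab4a to Rab4b overlapped between groups, with a p of 0.2 for pamidronate versus control in both.

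**Figure D4:**
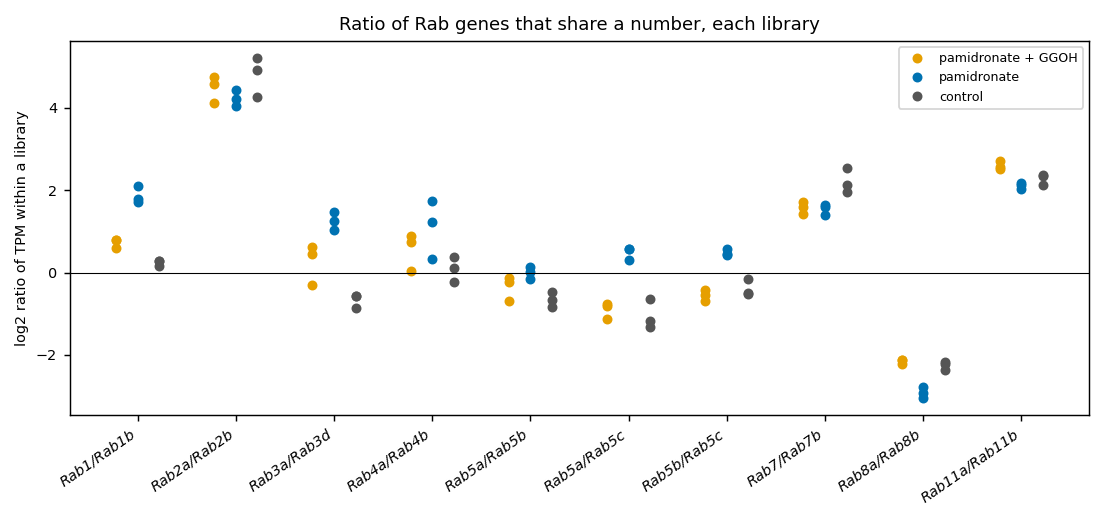
Log2 ratio of TPM within each library (y axis) for related Rab genes that share a number, with pamidronate + GGOH, pamidronate and control from left to right. Points are libraries; for Rab1 over Rab1b the pamidronate libraries lie at 1.72 to 2.10 and the controls at 0.15 to 0.28.

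The 14 untested members had at most 18 counts in any library, while the least counted tested member had 123 counts over the 9 libraries. They were Rab3b, Rab3c, Rab9b, Rab17, Rab25, Rab27b, Rab33a, Rab36, Rab37, Rab38, Rab39b, Rab40b, Rab42 and Rab44. Of these, 6 had no count in any control library, namely Rab3b, Rab9b, Rab17, Rab27b, Rab36 and Rab44. Rab3b, a secretory Rab, had 3, 2 and 2 counts with pamidronate + GGOH and 8, 5 and 5 counts with pamidronate. Rab25, an epithelial relative of Rab11, had 14 counts with pamidronate + GGOH, 11 with pamidronate and 16 in control, summed over 3 libraries. The number of all genes with a count also differed between the groups, as given above. Processed copies of 4 Rab genes are annotated in the table and had at most 4 counts in a library.

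The form of the coding end was set beside the calls, for which all tested genes gave 32.9% lower and 36.2% higher with pamidronate than in control, and 23.6% lower and 25.2% higher with pamidronate + GGOH than with pamidronate. Among tested members with 1 cysteine codon, 4 of 7 fell and 1 rose with pamidronate relative to control, with a median log2 fold change of -0.25. Among those with 2 such codons, 20 of 38 fell and 10 rose, with a median of -0.30. With pamidronate + GGOH relative to pamidronate, 3 of 7 members with 1 cysteine codon rose and 2 fell, and 13 of 38 with 2 rose and 8 fell.

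The proteins that attach the lipid to Rabs and escort them were also measured. All 7 such genes were tested. With pamidronate 5 fell (71.4%) and 2 rose (28.6%) relative to control, beside 32.9% and 36.2% of all tested genes. None of these changes reached 2-fold. Of the 5, only 3 fell with upper-quartile scaling, without control replicate 1 or without pamidronate replicate 2. Rabggtb, the catalytic subunit of the Rab prenyl transferase, rose to 45.3 CPM with pamidronate, against 26.0 CPM in control (log2 0.80 ± 0.13 SE, adjusted p = 6.19e-05). Its partner subunit Rabggta fell to 23.4 CPM, against 32.1 CPM in control (log2 -0.46 ± 0.09 SE, adjusted p = 0.000557). The escort protein genes Chm and Chml fell by 0.55 and 0.33 on the log2 scale. The inhibitor Gdi2, which extracts Rabs from membranes, fell to 206 CPM with pamidronate, against 345 CPM in control (log2 -0.75 ± 0.09 SE, adjusted p = 3.08e-06). Rabif, a guanine nucleotide releasing chaperone, rose with pamidronate (log2 0.70 ± 0.12 SE) and was lower with pamidronate + GGOH than with pamidronate (log2 -0.84 ± 0.12 SE, adjusted p = 4.96e-05). Chm was higher with pamidronate + GGOH than with pamidronate (log2 0.40 ± 0.11 SE, adjusted p = 0.00597), and the other 5 genes did not pass in that comparison. The 1 higher and the 1 lower call were each 14.3% of these genes, beside 25.2% higher and 23.6% lower among all tested genes.

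Among 42 exchange factor genes, all tested, 20 fell and 11 rose with pamidronate relative to control, and 11 fell and 15 rose with pamidronate + GGOH relative to pamidronate. Among all tested genes 32.9% fell and 36.2% rose in the first comparison and 23.6% fell and 25.2% rose in the second, beside 47.6%, 26.2%, 26.2% and 35.7% of these GEFs. The count of 11 that rose with pamidronate was 7 without control replicate 2 or without control replicate 3. The largest falls with pamidronate were in Rin2 and Rin3, GEFs of Rab5, in Madd, a GEF of Rab3 and Rab27, and in Rab3il1, a GEF of Rab8. Rin2 had 57.4 CPM with pamidronate, against 307 CPM in control (log2 -2.42 ± 0.13 SE, adjusted p = 3.63e-09), and 97.3 CPM with pamidronate + GGOH. Madd fell with pamidronate (log2 -1.88 ± 0.16 SE, adjusted p = 3.77e-07) and was higher with pamidronate + GGOH than with pamidronate (log2 1.48 ± 0.16 SE, adjusted p = 1.16e-05). Rab3il1 had 32.4 CPM with pamidronate + GGOH and 32.0 CPM with pamidronate, against 115 CPM in control.

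Of 37 activating protein genes, 36 were tested, and 18 fell (50%) and 11 rose (30.6%) with pamidronate relative to control, beside 32.9% and 36.2% of all tested genes. With pamidronate + GGOH 9 fell (25%) and 14 rose (38.9%) relative to pamidronate, beside 23.6% and 25.2% of all tested genes, the first count being 5 without pamidronate + GGOH replicate 2. Tbc1d5, a GAP of Rab7, fell with pamidronate (log2 -1.40 ± 0.11 SE, adjusted p = 8.27e-08) and was higher with pamidronate + GGOH than with pamidronate (log2 1.18 ± 0.11 SE). Tbc1d2, another GAP of Rab7, rose with pamidronate (log2 1.40 ± 0.11 SE, adjusted p = 8.33e-08), and Sgsm1 rose more (log2 1.73 ± 0.11 SE, adjusted p = 7.81e-09). Tbc1d10a, a GAP of Rab27a and Rab35, rose with pamidronate (log2 1.37 ± 0.17 SE) and was lower with pamidronate + GGOH than with pamidronate (log2 -1.47 ± 0.17 SE, adjusted p = 8.17e-06). Tbc1d9 was 12.5 CPM with pamidronate + GGOH, against 2.34 CPM with pamidronate (log2 2.42 ± 0.29 SE, adjusted p = 1.61e-05).

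Effectors are the proteins that active Rabs bind. Of 54 effector genes 44 were tested, with 16 lower and 19 higher with pamidronate than in control, and 15 lower and 9 higher with pamidronate + GGOH than with pamidronate. The first shares, 36.4% and 43.2%, were near the 32.9% and 36.2% of all tested genes, and the second were 34.1% and 20.5%, beside 23.6% and 25.2%. Optn, an effector of Rab8 and an autophagy receptor, had 3.07 CPM with pamidronate, against 0.0969 CPM in control (log2 4.87 ± 0.45 SE, adjusted p = 3.03e-07). Wdr91, an effector of Rab7 on endosomes, rose to 173 CPM with pamidronate, against 51.4 CPM in control. Ocrl, an inositol phosphatase bound by several Rabs, fell (log2 -1.46 ± 0.12 SE, adjusted p = 8.96e-08), and Lrrk1 fell more (log2 -1.67 ± 0.14 SE, adjusted p = 1.18e-07). Golga2, a Golgi matrix protein that binds Rab1, was lower with pamidronate + GGOH than with pamidronate (log2 -1.17 ± 0.11 SE, adjusted p = 1.61e-06). Rab11fip5, an effector of Rab11, had 49.4 CPM with pamidronate + GGOH, against 137 CPM in control (log2 -1.47 ± 0.11 SE, adjusted p = 3.6e-07). It was the only effector at least 2-fold lower in that comparison, and 4 were at least 2-fold higher, beside 4.05% and 15.2% of all tested genes. The 4 were Optn (log2 3.78), Sytl3 (1.88), Unc13d (1.47) and Rab11fip4 (1.40), each with means under 5 CPM in both groups. Over these 4 lists the shares called with pamidronate relative to control were 100%, 73.8%, 80.6% and 79.5%, beside 69.2% of all tested genes.

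Promoter windows from 250 bases before to 50 bases after the start site were read for 47 of the 59 members from RefSeq (GRCm38.p6). The letters CACGTG, the same on both strands and known as the core of sites for factors of the MiT/TFE family and for other E-box factors, occurred in 6 of these 47 members (12.8%), beside 8.09% of 27025 genes with a window. The 6 were Rab5a, Rab20, Rab21, Rab23, Rab24 and Rab27a, which rose (Rab5a, Rab20) or fell (Rab21, Rab23, Rab24, Rab27a) with pamidronate relative to control. Rab5a had the letters at 2 places, 235 and 95 bases before the start, and its window is shown with them in capitals (chr17:53478984-53479283, plus strand).
Rab5a promoter: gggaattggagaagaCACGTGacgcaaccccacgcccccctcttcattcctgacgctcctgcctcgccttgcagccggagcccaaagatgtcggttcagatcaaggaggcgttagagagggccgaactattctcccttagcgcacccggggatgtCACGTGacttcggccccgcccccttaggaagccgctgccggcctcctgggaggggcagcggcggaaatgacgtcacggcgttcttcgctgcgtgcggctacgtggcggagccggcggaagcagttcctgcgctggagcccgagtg
The letters TCACNCCAC, searched on both strands as the core of a sterol response element, were in 1 of the 47 members (2.13%), Rab3a, beside 1.44% of all genes with a window.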

How the data were processed

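Total RNA of 9 libraries of RAW 264.7 cells was sequenced after ribosomal RNA depletion, per the labels' protocols. The authors deposited raw counts, whole numbers for 49315 genes, and TPM values, in which counts are divided by exon length and brought to 1 common sum. Per the submitters' processing notes, Trimmomatic 0.36, DESeq (no version or role) and build GRCm38 are named; how reads were aligned and counted, and whether by strand, is not given in the sources used here. Libraries held 14356069 to 18957968 counts and were grouped by the treatment in their titles.

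The tests of single genes started from the deposited counts. Genes were filtered with filterByExpr, which left 15963, and scaled with TMM factors. All 9 libraries entered 1 fit of edgeR's quasi-likelihood test (edgeR 4.0.16, R 4.3.3) with Benjamini-Hochberg adjustment over all tested genes, so that every adjusted p in the text comes from this test unless DESeq2 (1.42.0) is named. A gene was called at an adjusted p under 0.05. SE is the standard error of the log2 fold change, and CPM values are counts scaled by library total and TMM factor. The deposited TPM values gave levels between genes, sums by trafficking step, markers and ratios within pairs of genes. The ratios were compared by exact permutation in scipy 1.17.1. Alternatives changed the scaling, the low-count filter, the tool, the libraries in the fit or the replicate block; scaling by library totals alone was added after seeing the data. The share of true changes of a given size that the test finds in these data was not tested.

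Coding ends were read from GENCODE M21 transcripts and promoters from RefSeq (GRCm38.p6). The members, the trafficking steps, the lists of regulators and effectors and the tests were chosen with earlier results of these data known. Every library's value is given for members called with at least a 2-fold change in a comparison and a group mean of 5 CPM, and for a fixed set of members; regulators and effectors are named for change of at least 2-fold, up to 4 per list and comparison, and the 7 genes of prenylation without that limit. No library was a copy of another, since chi-square values between libraries of a group were 3.72 to 32.9 times their degrees of freedom. Same-numbered libraries of different groups had correlations of -0.22 to 0.20 between their deviations from the group means, and differently numbered ones -0.22 to 0.18. With 3 libraries a group, this check showed no pairing by number and could not exclude one.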

Additional observations from a re-analysis of the deposited data

How the results depend on the processing

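Among the tested Rab genes, no called change turned direction under any of the 17 alternatives. Summed over genes, comparisons and alternatives, 66 Rab calls were lost and 30 gained, many of which stand above beside their genes. Of the others, the falls of Rab35 and Rab21 with pamidronate + GGOH relative to control were lost with upper-quartile scaling (adjusted p = 0.0806 and 0.234) and totals alone (0.178 and 0.401). In that comparison Rab26 passed in 4 alternatives (0.0138 to 0.0493) and Rab40c with totals alone (0.0432). Against pamidronate, pamidronate + GGOH gained Rab6b with no filter (0.00374) and without pamidronate + GGOH replicate 1 (0.0432), and Rab18 without pamidronate replicate 3 (0.0451). With the replicate number as a block, Rab counts were 11 higher and 24 lower with pamidronate than in control, 15 and 10 with pamidronate + GGOH relative to pamidronate, and 3 and 22 relative to control. DESeq2 gave 10 and 24, 17 and 10, and 3 and 22 for the same comparisons. Without each replicate in turn, 8 to 11 Rab genes rose and 22 to 25 fell with pamidronate relative to control, 12 to 18 rose and 10 to 11 fell with pamidronate + GGOH relative to pamidronate, and 1 to 4 rose and 21 to 22 fell relative to control.

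Scaling moved the comparison of pamidronate + GGOH with control most. The 3 Rab genes higher there were 4 with upper-quartile scaling and 5 with totals alone, and the 22 lower were 16 and 14. Apart from scaling, the 3 were 6 with no filter on low counts. Of all genes, 4202 higher and 4157 lower became 5834 and 2600 with upper-quartile scaling and 6106 and 2303 with totals alone. For pamidronate + GGOH versus pamidronate, 4022 higher and 3762 lower became 5280 and 2493 with totals alone. Upper-quartile scaling moved the all-gene median by 0.19 for pamidronate and 0.20 for pamidronate + GGOH relative to control, and totals alone by 0.06 and 0.23.

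The regulator lists moved likewise. For pamidronate + GGOH versus pamidronate with totals alone, GEFs were 23 higher and 7 lower, GAPs 5 lower, effectors 16 higher and prenylation genes 3 higher. For pamidronate + GGOH versus control, 26.3% of all tested genes were higher and 26.0% lower. There 7 GEFs were higher and 14 lower, and 6 GAPs higher and 10 lower. Of the other lists, 12 effectors were higher and 13 lower, and 1 prenylation gene was higher and 3 lower. With upper-quartile scaling these were 13 GEFs higher and 8 lower, 10 GAPs higher and 5 lower, 7 effectors lower and 1 prenylation gene lower. With totals alone they were 16 GEFs higher and 8 lower, 10 GAPs higher and 4 lower, 20 effectors higher and 7 lower, and 1 prenylation gene lower. With upper-quartile scaling 3 prenylation genes were lower with pamidronate than in control. Without each replicate in turn, GEFs higher were 7 to 10 with pamidronate and 4 to 7 with pamidronate + GGOH relative to control, prenylation genes lower were 3 to 5 with pamidronate relative to control and 1 to 2 with pamidronate + GGOH relative to pamidronate, and GAPs lower were 5 to 9 in that last comparison. The effector Rufy3, not called for pamidronate + GGOH versus control, was at a log2 fold change of 0.23 with totals alone (adjusted p = 0.0416), opposite in sign to the TMM value. The cause of these shifts was not tested.

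Depth limits the members with few counts, such as Rab6b, Rab15, Rab19, Rab39, Rab43 and the untested genes.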
